A study of Rattus norvegicus with 24 samples.

Results

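The data described here were the expression of 10851 genes in the medial gastrocnemius, a calf muscle, of 24 rats, read as 1 comparison of treatment: 12 rats given monocrotaline against 12 rats given saline, whatever their training. Rats were assigned by the treatment named in their labels, and all 24 rats of the series took part. Monocrotaline is a plant alkaloid that damages lung vessels and leads to pulmonary hypertension and right heart failure. The study used it as a model of cardiac cachexia (CC), the loss of muscle that goes with heart failure. According to the study's methods, the animals were male Wistar rats, a single injection was given, and training was treadmill running. Each treatment arm held 6 sedentary and 6 exercised rats. The saline rats formed the groups Sed and Ex, and the monocrotaline rats the groups CC-Sed and CC-Ex. The labels name no genetic change, each library came from the left leg of 1 rat, and animals were not pooled. The additive model used for the comparison has a term for training, so that the monocrotaline effect is an average over sedentary and exercised rats. It answers what monocrotaline did to the muscle in both training states together. It shares every rat with the split comparisons of 6 against 6 rats, CC-Sed against Sed (sedentary) and CC-Ex against Ex (exercised).

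In wasting muscle, FoxO transcription factors and the glucocorticoid receptor are known to switch on genes of protein breakdown. Among their targets are Fbxo32 (atrogin-1) and Trim63 (MuRF1), ubiquitin ligases that mark muscle proteins for the proteasome. Autophagy genes, which deliver organelles and aggregates to the lysosome, belong to the same program, whereas insulin and IGF-1 signalling through Akt holds it down. Such programs can run at different strength in different animals, which widens the spread within a group as well as moving its mean.

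Total estimated counts per rat lay between 37816239 and 50350554. The mean total did not differ detectably between monocrotaline and saline rats (two-sided permutation test, p = 0.993). Fast-fibre sarcomere genes, summed over 13 measured members, lay between 109298 and 226935 CPM (counts scaled to a common library size by TMM) in saline rats and between 81620 and 251258 CPM in monocrotaline rats. Myh4, the fast myosin heavy chain IIb, alone lay between 42052 and 130291 CPM. Slow-fibre genes, summed over 8 members, ranged from 832 to 11463 CPM in saline and from 694 to 12703 CPM in monocrotaline rats, and their part in the results was not tested beyond a fit with their mean as a covariate. The library numbers in the labels were lower in the monocrotaline rats (median 7, range 1 to 21) than in the saline rats (median 16.5, range 7 to 24). With the library number as a covariate, 300 genes were upregulated and 115 downregulated. CC-Ex 5, the fifth replicate of the exercised monocrotaline group, stood apart from all other rats. Its profile lay 0.950 log2 units from its group mean, whereas the other 11 monocrotaline rats lay between 0.340 and 0.557. Calls of named genes that are lost without this rat are given with and without it.

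Monocrotaline upregulated 223 genes and downregulated 87 across both training states, which is 2.06% and 0.802% of the 10851 genes tested (2.86% in either direction). The criteria for a differentially expressed gene (DEG) were an edgeR quasi-likelihood p-value that stayed under 0.05 after Benjamini-Hochberg adjustment and a log2 fold change (Log2FC, monocrotaline minus saline) of at least 1 in size. With the adjusted p-value alone, 1957 genes (18.0%) were higher and 1197 (11.0%) lower in monocrotaline rats, 3154 (29.1%) in all. The adjusted p-value alone gave 701 (6.46%) in sedentary and 108 (0.995%) in exercised rats. The split comparisons, fitted on the same 24 rats with the groups as 4 levels, gave 203 DEGs in Sed vs. CC-Sed (150 up and 53 down, 1.87%) and 57 in Ex vs. CC-Ex (48 up and 9 down, 0.0829% for the latter and 0.525% in all). Of the 310 pooled DEGs, 40 were called in both split comparisons, 106 only in the sedentary and 10 only in the exercised one. The remaining 154 (1.42% of the genes tested) were called in neither and were gained by pooling, 103 of them upregulated and 51 downregulated. The median Log2FC of all genes was 0.01. The balance of up and down calls depended on the scaling and the tool: upper-quartile scaling gave 166 up and 110 down, and limma-voom gave 148 up and 148 down.

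Without CC-Ex 5, 149 genes were upregulated and 70 downregulated in the pooled comparison. The number gained moved further, from 154 to 33: of the 154 genes, 81 were still pooled DEGs without this rat and 98 were then called in a split comparison. Without CC-Sed 4 it was 98, and over the other 22 rats left out in turn it stayed between 103 and 208. The split contrasts share 1 model, and without CC-Ex 5 the sedentary count rose from 203 to 339. The exercised count moved as well, since Ex vs. CC-Ex gave 2 or 3 DEGs when any 1 Ex rat, CC-Ex 5 or CC-Ex 6 was left out, and 251 without CC-Ex 4. DESeq2, which called 318 DEGs in the sedentary and 214 in the exercised comparison, left 49 gained genes, of which 39 were among the 154. Of the 154 genes, DESeq2 called 114 in a split comparison. Fitting the 12 sedentary and the 12 exercised rats separately gave 260 DEGs in the sedentary and 1 in the exercised comparison, and 111 gained genes. Upper-quartile scaling gave 184 and 20, and 145 gained genes.

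Standard errors were smaller in the pooled comparison, while its Log2FC values are averages over the split ones. The median standard error of a Log2FC was 0.12 in the pooled comparison, against 0.17 in each split comparison. The ratio of pooled to split error had a median of 0.696 for the sedentary and 0.697 for the exercised comparison, close to the 0.707 that the number of rats alone would give. The fits share their rats and have nearly equal estimates of variation, so this ratio was largely fixed in advance. The median biological coefficient of variation was 0.210 in the additive model and 0.213 in the model of 4 groups. For the gained genes the median standard error was 0.34 pooled and 0.49 in either split. Of the gained genes, 153 had missed the adjusted p-value in both splits, and 1, Zrsr2-ps1, had passed it in the sedentary rats with a Log2FC of 0.97. In 101 of the 154 the Log2FC was at least 1 in size in both splits, in 23 only in the sedentary and in 30 only in the exercised comparison. At an unadjusted p-value under 0.05, 96 passed in both splits. The smaller of the 2 split adjusted p-values was under 0.1 in 111 of the 154, with a median of 0.0813. These counts follow in part from choosing genes by the pooled effect, which averages the split effects of the same rats. They are no separate evidence for an effect in either split.

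**Figure D1:**
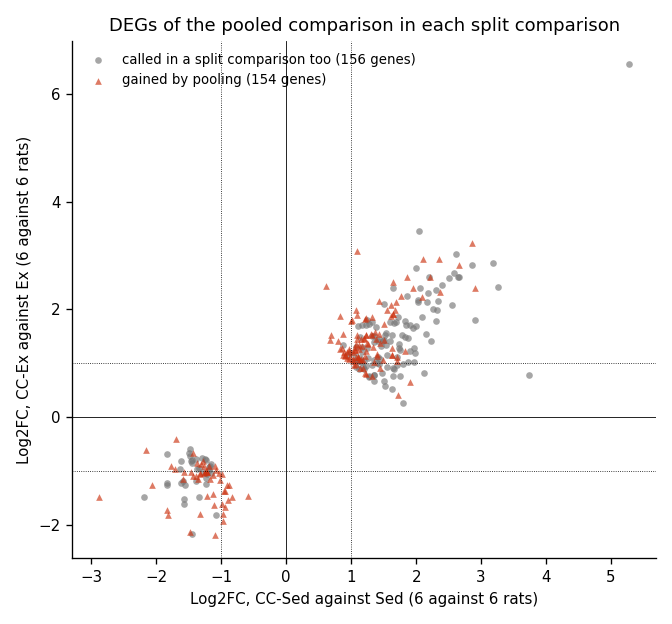
Log2FC of the 310 pooled DEGs in Sed vs. CC-Sed (horizontal) and in Ex vs. CC-Ex (vertical), each from 6 against 6 rats, with 154 gained genes as red triangles and 156 genes also called in a split comparison as grey circles; dotted lines mark a Log2FC of 1 in size. In 101 of the 154 gained genes the Log2FC is at least 1 in size in both splits, the grey circle far from the others is Mt2A, at 5.28 and 6.56, and the same sign in both splits follows from choosing genes by the pooled effect.

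The gained genes in the plot of split Log2FC values had a wide spread among monocrotaline rats. The median pooled Log2FC was 1.31 for the gained upregulated genes, against 1.47 for the upregulated genes that a split comparison also called. The median standard deviation of log2 CPM within groups was 0.49 in saline and 1.13 in monocrotaline rats for the gained genes, against 0.42 and 0.81 for the others. A gained upregulated gene was above every saline rat in a median of 6 of the 12 monocrotaline rats (range 1 to 10), and a gene already called in a median of 9 (range 2 to 12). Gained genes were chosen for missing the split criteria, which favours a wide spread. These differences follow in part from that choice and carry no test. At the edge of the adjusted p-value, Fgf1, a growth factor, was the last gene inside (Log2FC 1.28, edgeR adjusted p = 0.0493). With each rat left out in turn, its call held 4 times out of 24. Lpl, lipoprotein lipase, was the first outside (Log2FC 1.10, edgeR adjusted p = 0.0518).

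The upregulated gene with the smallest p-value was Acer2, an alkaline ceramidase of the Golgi. Its level lay between 2.51 and 5.16 CPM in saline rats (median 3.41) and between 6.95 and 23.7 CPM in monocrotaline rats (median 16.7). All 12 monocrotaline rats were above every saline rat, which 11 of all genes tested (0.101%) showed in this direction, and Acer2 had a Log2FC of 2.15 ± 0.18 (SE, n = 12 against 12, edgeR adjusted p = 1.27e-07). Plin4, a coat protein of lipid droplets, was the other upregulated DEG without overlap, at 132 to 340 CPM (median 263) in saline and 347 to 768 CPM (median 511) in monocrotaline rats. Its Log2FC was 1.05 ± 0.15 (edgeR adjusted p = 0.000186), and 0.99 without CC-Ex 5. Inhbb, the beta B subunit of activins and inhibins, lay between 0.469 and 1.26 CPM in saline rats and between 0.960 and 6.18 CPM in monocrotaline rats, 11 of which were above every saline rat (Log2FC 2.10 ± 0.23, edgeR adjusted p = 1.83e-05).

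Enzymes were among the next genes. Prodh, proline dehydrogenase of the mitochondrion, rose from a median of 5.10 CPM (1.61 to 8.78) in saline to 26.1 CPM (7.87 to 46.1) in monocrotaline rats, with 11 of 12 above the saline range (Log2FC 2.32 ± 0.29, edgeR adjusted p = 6.13e-05). Acad11, an acyl-CoA dehydrogenase, rose from a median of 29 CPM (23.5 to 50.6) to 94.4 CPM (29.7 to 151), again with 11 of 12 rats above (Log2FC 1.51 ± 0.19). Also among the 10 smallest p-values were Tmem252, a membrane protein (Log2FC 1.66), Klhl38 (1.47), Zfp622 (2.25), Ip6k3, an inositol phosphate kinase (1.18), Art5, an ADP-ribosyltransferase (1.52), and Pim3, a serine/threonine kinase (1.80). Each of them had 10 or 11 monocrotaline rats above every saline rat.

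Among the downregulated genes no DEG parted the treatments without overlap, and of all genes tested 0.0369% did so. Pcbd1, a dehydratase that recycles tetrahydrobiopterin and a cofactor of HNF1, fell from a median of 2.86 CPM (1.58 to 3.96) in saline to 0.773 CPM (0.366 to 1.93) in monocrotaline rats. It was below every saline rat in 10 of 12 (Log2FC -1.59 ± 0.23, edgeR adjusted p = 0.000196). Irgm, an interferon-inducible GTPase, was below every saline rat in 11 of 12, with medians of 8.26 and 4.26 CPM (Log2FC -1.14 ± 0.17). Socs2, an inhibitor of growth hormone signalling, lay between 6.30 and 24.8 CPM in saline and between 3.24 and 8.25 CPM in monocrotaline rats (Log2FC -1.15 ± 0.19). Of the 12 monocrotaline rats, 9 were below the saline range of Socs2. Others were Hs3st1, a heparan sulfate sulfotransferase (-1.41), Anxa10, an annexin (-1.15), Mamstr, a cofactor of MEF2 (-1.08), Syt15, a synaptotagmin (-1.41), Bbs9, of the ciliary BBSome (-1.29), Slc25a30, a mitochondrial carrier (-1.53), and Armcx2 (-1.05). Armcx2 missed the fold criterion without CC-Ex 5, at -0.99.

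The largest increase was that of Mt2A, a metallothionein that binds zinc and copper. Saline rats lay between 0.587 and 5.39 CPM (median 1.94) and monocrotaline rats between 1.59 and 1295 CPM (median 32.1), with 9 of 12 above the saline range (Log2FC 5.92 ± 1.00, edgeR adjusted p = 0.000484). The 1295 CPM were those of CC-Ex 5, and the Log2FC without it was 4.24. Spsb1, a substrate receptor of a ubiquitin ligase, rose from a median of 5.49 to 30.7 CPM (Log2FC 3.02 ± 0.50, and 2.33 without CC-Ex 5), and Ddit4 (REDD1), an inhibitor of mTORC1, from 18.7 to 73.5 CPM (Log2FC 2.84 ± 0.43). Ampd3, an AMP deaminase, was gained by pooling with a Log2FC of 3.05 ± 0.73, and its groups overlapped widely, at 4.14 to 58.2 CPM in saline and 2.42 to 481 CPM in monocrotaline rats. Without CC-Ex 5 the Log2FC of Ampd3 was 2.14, and it was then called in the sedentary comparison too. The largest decreases were those of Cish, an inhibitor of cytokine signalling (Log2FC -2.18, gained), Mdga1, a cell adhesion protein (-1.83), Dbp, a clock output factor (-1.82, gained), Tfrc, the transferrin receptor (-1.81), and Postn, periostin of the matrix (-1.81, gained). Mdga1 had a median of 13.4 CPM in saline (9.80 to 22.8) and 2.29 CPM in monocrotaline rats (0.381 to 10.9), and 11 of 12 rats were below the saline range. Without CC-Ex 5, Cish and Dbp were called in the sedentary comparison too, and Postn was still gained.

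Promoters of these genes, 250 bases before to 50 after the start site in the RefSeq annotation of build GRCr8, were searched on both strands for the FOXO element GTAAACA, the AGAACA hexamer, 1 arm of a glucocorticoid receptor site, and the E-box CACGTG. Of the upregulated DEGs, 157 of 223 matched a single promoter by symbol, and of the downregulated DEGs 65 of 87. The FOXO element was in 4.46% of the upregulated and 1.54% of the downregulated promoters, against 2.47% of the 8184 promoters of all tested genes that matched. The AGAACA hexamer was in 11.5% and 10.8%, against 12.2%, and the E-box in 12.7% and 9.23%, against 10.1%. Of all 33469 promoters in the annotation, 3.78% held the FOXO element, 20.7% AGAACA and 6.42% the E-box. These shares describe letters in a short window and not binding. Of the 10 DEGs with the largest changes, the 3 whose windows held a searched motif are shown, with the motif in capitals, an E-box in Mt2A and AGAACA in Spsb1 and Postn.
Mt2A, chr19:10838659-10838958, minus strand: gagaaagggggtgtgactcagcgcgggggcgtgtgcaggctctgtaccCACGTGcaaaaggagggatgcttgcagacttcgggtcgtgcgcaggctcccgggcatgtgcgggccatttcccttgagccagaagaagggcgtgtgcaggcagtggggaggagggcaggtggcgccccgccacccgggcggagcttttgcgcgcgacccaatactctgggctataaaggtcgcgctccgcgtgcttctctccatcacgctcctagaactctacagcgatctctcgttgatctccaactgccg
Spsb1, chr5:165654176-165654475, minus strand: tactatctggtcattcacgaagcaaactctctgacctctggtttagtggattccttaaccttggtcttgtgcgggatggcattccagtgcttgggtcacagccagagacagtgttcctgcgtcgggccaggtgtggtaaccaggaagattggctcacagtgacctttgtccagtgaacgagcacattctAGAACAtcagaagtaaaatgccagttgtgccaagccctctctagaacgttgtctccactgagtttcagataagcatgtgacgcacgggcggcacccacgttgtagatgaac
Postn, chr2:140677811-140678110, plus strand: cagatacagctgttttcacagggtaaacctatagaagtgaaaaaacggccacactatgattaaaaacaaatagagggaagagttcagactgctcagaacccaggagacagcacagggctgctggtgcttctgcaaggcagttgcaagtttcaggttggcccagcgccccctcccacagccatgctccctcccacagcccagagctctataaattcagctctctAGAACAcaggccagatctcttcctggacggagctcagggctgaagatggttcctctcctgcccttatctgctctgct

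Genes gained by pooling were led, among the upregulated, by Palmd (palmdelphin), Map1lc3b (LC3B, the protein that coats autophagosomes), Map1lc3b2, Ctdspl, a small phosphatase, and Zrsr2-ps1. Map1lc3b lay between 42.1 and 66.7 CPM in saline rats (median 53.1) and between 56.1 and 898 CPM in monocrotaline rats (median 106). In 10 of 12 monocrotaline rats it was above the saline range, and the highest value was that of CC-Ex 5. Its Log2FC was 1.92 ± 0.38 pooled (edgeR adjusted p = 0.00138), 1.70 in the sedentary split (adjusted p = 0.0563) and 2.14 in the exercised split (adjusted p = 0.0525), and 1.29 pooled without CC-Ex 5. Without CC-Ex 5 Palmd stood at 0.99 and Zrsr2-ps1 at 0.79, under the fold criterion, and Ctdspl fell from 2.65 to 1.66. Map1lc3b2 is a near copy of Map1lc3b, so reads may be divided between them. Others were Slc43a1, an amino acid transporter (1.37), Arrdc3, an arrestin-like adaptor (1.48), Rab20, a small GTPase (1.43), and Ppp1r15a (GADD34), the phosphatase subunit that acts on eIF2 (1.31, and 0.96 without CC-Ex 5). Without CC-Ex 5, Map1lc3b, Map1lc3b2, Ctdspl, Slc43a1, Arrdc3 and Rab20 stayed pooled DEGs and were called in the sedentary comparison too.

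Among the gained downregulated genes, Ccnd1, cyclin D1 of the G1 phase, had the smallest p-value. It lay between 6.08 and 16.4 CPM in saline rats (median 8.52) and between 0.281 and 6.17 CPM in monocrotaline rats (median 3.35). In 11 of 12 it was below every saline rat (Log2FC -1.37 ± 0.29, edgeR adjusted p = 0.00234), and the split comparisons gave -1.11 (adjusted p = 0.0887) and -1.63 (adjusted p = 0.0525). Tmtc4, which also fell below the saline range in 11 of 12 rats, had medians of 12.9 and 4.26 CPM (Log2FC -1.26 ± 0.31). Dusp10, a phosphatase of p38 and JNK, fell from a median of 28.4 to 13.9 CPM and was below the saline range in 10 of 12 rats. Further gained genes were Capn6, a calpain without protease activity (-1.78), Clec3b (tetranectin, -1.34), Sh2b2, an adaptor of receptor kinases (-1.18), Cacnb3, a calcium channel subunit (-1.04, and -0.98 without CC-Ex 5), and the unnamed locus LOC108348067 (-1.27). Without CC-Ex 5, Ccnd1, Tmtc4, Dusp10, Capn6, Clec3b and Sh2b2 were called in the sedentary comparison too, and LOC108348067 was still gained.

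**Figure D2:**
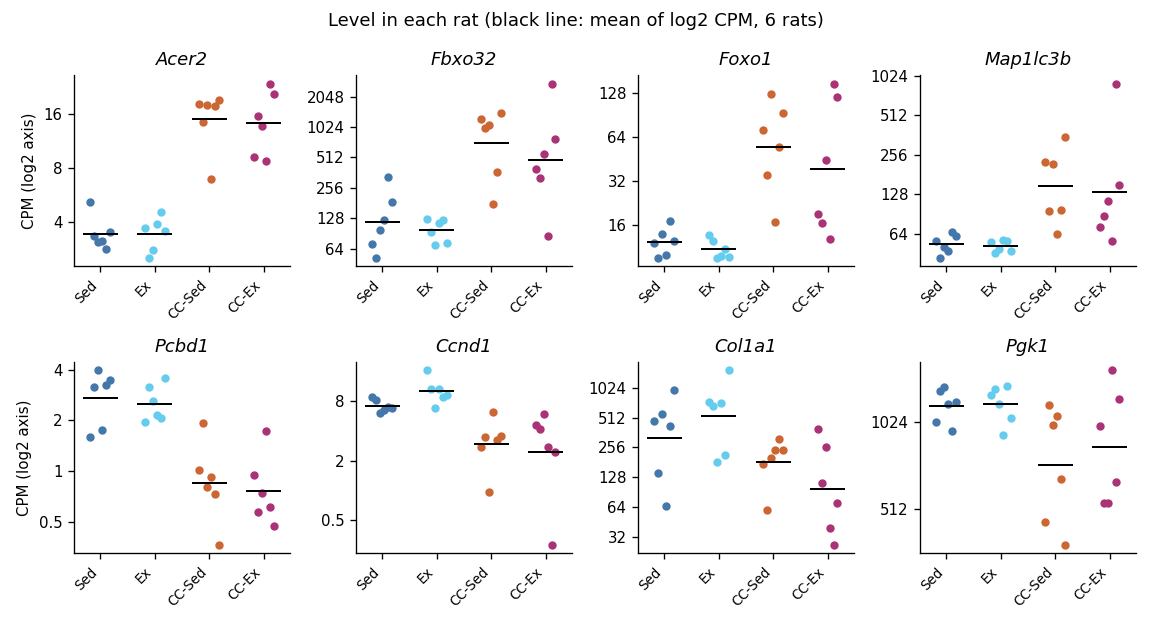
Level of 8 genes in each rat as CPM on a log2 axis, 6 rats a group, with a black line at the mean of log2 CPM. Acer2 is above every saline rat in all 12 monocrotaline rats, Pcbd1 is below in 10 and Ccnd1 in 11, whereas Fbxo32, Foxo1 and Map1lc3b show monocrotaline rats inside the saline range and Pgk1 shows a wide spread without a called change of its mean.

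Of 18 measured FoxO factors and known FoxO targets, 11 were upregulated DEGs and none was downregulated, and the median Log2FC was 1.45, against 0.01 over all genes. Over all genes 2.06% were upregulated and 0.802% downregulated, for comparison with this and the following lists. With the adjusted p-value alone 16 of the 18 were higher and 1 lower, against 18.0% and 11.0% of all genes. Foxo1 rose from a median of 11.6 CPM (9.63 to 17.2) to 50.1 CPM (12.9 to 149) and was above the saline range in 9 of 12 rats (Log2FC 2.43 ± 0.36, edgeR adjusted p = 0.00021). Foxo3 rose by 1.57, Sesn1, an activator of AMPK and inhibitor of mTORC1, by 2.25, Depp1, a FoxO target of peroxisomes and autophagy, by 2.06, and Bnip3, a mitophagy receptor, by 1.41 on the log2 scale. Gained here were Pdk4, the kinase that shuts off pyruvate dehydrogenase (2.34), and Cited2, a transcriptional regulator (1.18). Pdk4 lay between 28.8 and 645 CPM in saline rats, and its split comparisons missed the adjusted p-value with a Log2FC of 2.36 and 2.32. The member that was lower was Sesn3 (-0.93, edgeR adjusted p = 0.00412). Without CC-Ex 5 the list again had 11 upregulated DEGs, with a median of 1.22. Pdk4 was then called in the sedentary comparison too, and Cited2 was still gained.

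Of 17 measured ubiquitin ligases linked to atrophy, 5 were upregulated DEGs, against 2.06% of all genes, and none was downregulated. The median Log2FC was 0.28. Fbxo32 rose from a median of 108 CPM (52.3 to 326) to 662 CPM (86.0 to 2755), above the saline range in 9 of 12 rats (Log2FC 2.82 ± 0.44, edgeR adjusted p = 0.000271). Trim63 rose from 202 CPM (157 to 640) to 764 CPM (190 to 4846) and was above the saline range in 6 of 12 (Log2FC 2.40 ± 0.46, and 1.77 without CC-Ex 5). Both had been called in the sedentary comparison. Gained were Fbxo30 (MUSA1, 1.33), Cblb, a ligase that targets Irs1 (1.15), and Ube4b, which extends ubiquitin chains (1.05). These 3 rested on CC-Ex 5, and without it stood at 0.80, 0.80 and 0.50, still with adjusted p-values under 0.05 in edgeR (at most 0.0206) but under the fold criterion.

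Proteasome subunits rose by small amounts: 27 of 31 were higher at the adjusted p-value alone, against 18.0% of all genes, 31 of 31 had a positive Log2FC, and the median was 0.52. Only Psmd8, a subunit of the regulatory lid, passed the fold criterion (1.10, gained). Psmd2 (0.69) and Psmd11 (0.85), both of the regulatory particle, passed the adjusted p-value only. CC-Ex 5 had the highest level of Psmd8 and Psmd11, and without it 16 of 31 subunits were higher, the median was 0.34 and Psmd8, at 0.72, was no DEG. Of 34 autophagy and lysosome genes, 6 were upregulated DEGs and 20 were higher at the adjusted p-value alone, with a median of 0.28. Gabarapl1, an LC3 relative, rose by 1.80, and Ctsl, cathepsin L of the lysosome, by 1.78 on the log2 scale, and both had been called in a split. Map1lc3b, Sqstm1, the receptor p62 (1.12), and Ulk1, the kinase that starts autophagy (1.04), were gained, and Sqstm1 and Ulk1 stood at 0.82 and 0.77 without CC-Ex 5.

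Translation genes showed the same kind of small shift. Of 38 translation factors, 20 were higher at the adjusted p-value alone, against 18.0% of all genes, and none was a DEG (median 0.24). Of 70 cytosolic ribosomal protein genes, 37 were higher at the adjusted p-value alone, 1 was lower and none was a DEG (median 0.23). Eif3a, a subunit of initiation factor 3, had a Log2FC of 0.83 ± 0.20 and Eef2, the elongation factor, of 0.35 ± 0.08. Ribosomal protein genes have many processed copies, so their reads may be shared. Genes of the respiratory chain and ATP synthase had no call at the adjusted p-value in either direction among 70, with a median Log2FC of -0.20, and the tricarboxylic acid cycle had none among 15, with a median of -0.14. The mitochondrial ribosomal proteins gave 3 higher and 7 lower of 71, against 18.0% and 11.0% of all genes.

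Glucocorticoid-responsive genes included 12 upregulated DEGs among 17 measured, with a median Log2FC of 1.52. Cebpd, a transcription factor, rose from 8.90 CPM (6.53 to 25.2) to 68.2 CPM (10.2 to 195), above the saline range in 10 of 12 rats (Log2FC 2.63 ± 0.40, edgeR adjusted p = 0.00021). Fkbp5, the chaperone that dampens the receptor, rose by 1.81, Glul, glutamine synthetase, by 1.55, Klf15, a regulator of amino acid use, by 1.53, and Errfi1, an EGF receptor inhibitor, by 2.54 on the log2 scale (1.76 without CC-Ex 5). Per1, Lpin1, a phosphatidate phosphatase, and Cdkn1a, the cell cycle inhibitor p21, were gained, at 1.02, 1.21 and 1.52. Cdkn1a overlapped in all but 1 rat, at 1.47 to 29.4 CPM in saline and 2.50 to 51.3 CPM in monocrotaline rats. Without CC-Ex 5 these 3 were no longer DEGs, at 0.91, 0.78 and 0.94, and 8 of the 17 were. With each rat left out in turn, Per1 was called 12, Lpin1 23 and Cdkn1a 10 times out of 24.

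IGF-1 and insulin signalling gave 7 upregulated and 2 downregulated DEGs of 29, none of them gained. Upregulated were Irs2, an adaptor of the insulin receptor (1.49), Pik3r1, a regulatory subunit of PI3K (1.71), Igf1r, the IGF-1 receptor (1.26, and no DEG without CC-Ex 5, at 0.96), Eif4ebp1, the translation repressor 4E-BP1 (1.98), Ddit4, Ddit4l and Sesn1. Irs1, the main adaptor in muscle, fell by 1.09, and Igfbp5, an IGF binding protein, fell by 1.42 on the log2 scale. Igfbp5 lay between 313 and 936 CPM in saline and between 12.2 and 425 CPM in monocrotaline rats, and 9 of 12 were below the saline range. Igf1 itself missed the fold criterion in the pooled comparison, at -0.995 ± 0.168, although it had been called in the sedentary rats at -1.07. Of the IL-6 and SOCS genes, 3 of 13 were DEGs, against 2.86% of all genes: Il6r, the IL-6 receptor, rose by 2.23, and Cish and Socs2 fell.

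Clock genes moved in both directions, with 4 of 17 upregulated and 2 downregulated, 3 of the 6 gained, against 2.06% up and 0.802% down over all genes. Bmal1, of the positive limb, rose from 6.88 CPM (1.34 to 20.2) to 27.2 CPM (8.69 to 64.9), above the saline range in 9 of 12 rats (Log2FC 1.79 ± 0.40, edgeR adjusted p = 0.00343, gained). Dbp fell from 50.7 CPM (17.2 to 128) to 16.8 CPM (5.58 to 41.7), below it in 7 of 12 (gained). Nfil3, which opposes Dbp, rose by 1.78, Per1 by 1.02 (0.91 and no DEG without CC-Ex 5), and Bhlhe41, a repressor of the clock, fell by 1.39 on the log2 scale. The labels give no time of death, so its part in the result was not tested. The median standard deviation of log2 CPM of these genes within groups was 0.45 in saline and 0.74 in monocrotaline rats. Of the 17 genes, 11 had a larger one in monocrotaline rats, against 88.0% of all genes. The median log2 ratio of the 2 values was 0.14, against 0.70 over all genes.

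Matrix genes held more of the gained downregulated genes than any other list. Of 36 extracellular matrix genes, 8 were downregulated DEGs, none was upregulated, and 7 of the 8 were gained, with a median Log2FC of -0.48. Col1a1, the main chain of type I collagen, lay between 64.7 and 1543 CPM in saline rats (median 514) and between 26.6 and 393 CPM in monocrotaline rats (median 187). The groups overlapped in 9 of 12 rats, and the Log2FC was -1.64 ± 0.48 (edgeR adjusted p = 0.0151). Col1a2 (-1.39), Col3a1 (-1.46), Col5a1 (-1.31), Postn, Loxl1, a collagen cross-linking enzyme (-1.16), and Bgn, the proteoglycan biglycan (-1.03), were also gained. Col15a1, a basement membrane collagen, had been called in the sedentary rats and fell from 50.7 CPM (32.8 to 87.2) to 14.6 CPM (4.46 to 47.3), with 9 of 12 rats below the saline range (Log2FC -1.55 ± 0.31). Without CC-Ex 5, 6 of the 36 were DEGs, since Bgn stood at -0.94 and Loxl1 missed the adjusted p-value (edgeR adjusted p = 0.0571). With each rat left out in turn, Bgn was called 15 and Loxl1 13 times out of 24.

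Of 12 fibroblast markers, 6 were downregulated, all of them gained, with a median of -1.04: Clec3b, Col1a1, Col3a1, Mfap5, Pi16 and Thy1. Without CC-Ex 5 Mfap5 missed the fold criterion, at -0.99, and Clec3b was called in the sedentary comparison too. Dcn (decorin) and Pdgfra, which also mark fibroblasts, lay at medians of 170 and 13.5 CPM in saline and 162 and 11.9 CPM in monocrotaline rats. Summed over the 12 markers, the level was 665 to 5056 CPM in saline and 621 to 2773 CPM in monocrotaline rats. In bulk muscle, fewer cells of a type and less RNA per cell cannot be told apart. Of the other markers, none of 14 macrophage markers was a DEG, where 2.86% of all genes were. The macrophage markers summed to 30.5 to 276 CPM in saline and 46.6 to 311 CPM in monocrotaline rats. Of 15 endothelial markers, Vwf, von Willebrand factor, rose from 31.2 CPM (22.9 to 47.5) to 79.7 CPM (31.2 to 133), above the saline range in 11 of 12 rats (Log2FC 1.26 ± 0.18, edgeR adjusted p = 0.000192), and Cdh5, the endothelial cadherin, had medians of 84.9 and 73.2 CPM. The hemoglobin genes Hbb (1.11) and Hba-a1 (1.06), which mark red blood cells, were gained, and when each of the 24 rats was left out in turn they were called in 11 and 13 of the fits. The study, which used DESeq2, had listed both as DEGs in the sedentary and in the exercised comparison, so they were gained only against the edgeR splits used here. Erythroid markers summed to 49.9 to 209.6 CPM in saline and 33.8 to 960 CPM in monocrotaline rats, and leaving hemoglobin and other abundant genes out gave 221 up and 87 down.

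Smaller lists gave single genes. Of 9 lipolysis genes, Pnpla2, the triglyceride lipase ATGL, was upregulated (1.85 ± 0.31) beside Plin4. Of 24 genes of mitochondrial fatty acid oxidation, Acad11 and Ucp3, an uncoupling protein (1.40, gained and called in 15 of the 24 fits with 1 rat left out), were upregulated. At the adjusted p-value alone 8 of the 24 were higher, against 18.0% of all genes. Of 16 growth arrest genes, Gadd45b (1.65), Gadd45g (1.53) and Cdkn1a rose and Ccnd1 fell. Of 16 myogenic factors, Myod1, the myoblast determination factor, fell by 1.38 on the log2 scale (gained), and Mrtfa, a partner of serum response factor, by 1.30. Myod1 stood at -2.16 in sedentary and -0.60 in exercised rats. With each rat left out in turn its call held 11 times out of 24. Without CC-Ex 5 Myod1 was still a pooled DEG and was called in the sedentary comparison too. Of 27 antioxidant genes, Hmox1, heme oxygenase 1 (2.04), and Srxn1, sulfiredoxin (1.41, gained), were upregulated, and Srxn1 stood at 0.64 without CC-Ex 5. Of 13 immediate-early genes, Maff (2.63), Myc (2.52, gained, and 1.67 without CC-Ex 5) and Nr4a3 (2.28) were upregulated. Without CC-Ex 5 Myc was called in the sedentary comparison too. None of 18 genes linked to denervation was a DEG, where 2.86% of all genes were.

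Some lists were divided. Of 32 genes of glycolysis and glycogen, Aldoc, an aldolase (1.39), and Pfkfb3, which makes the activator of phosphofructokinase (1.83, gained), were upregulated, and the list median was -0.05. Of 12 genes of metallothioneins and zinc transport, Slc30a2, a zinc exporter, joined Mt2A (2.66, gained). Without CC-Ex 5 Slc30a2 stood at 1.97 and was called in the sedentary comparison too. Acsl4, an acyl-CoA synthetase, was the DEG among 14 genes of fatty acid uptake (1.32, gained, and 0.86 without CC-Ex 5). Ppargc1b, the coactivator PGC-1 beta, was the DEG among 18 coactivators and nuclear receptors and fell by 1.03 on the log2 scale (gained). With each rat left out in turn its call held 10 times out of 24, and it stood at -0.92 without CC-Ex 5, when the list had no DEG. Its level lay between 7.84 and 17.6 CPM in saline and between 0.352 and 12.8 CPM in monocrotaline rats, with 7 of 12 below the saline range. Of 7 satellite cell markers, Sdc4, a syndecan, was the DEG and rose by 2.15 on the log2 scale. The list median was 0.19, and 4 of the 7 had a positive Log2FC. Of 4 fat cell markers, Adipoq, adiponectin, was the DEG and fell by 1.09 with no rat outside the saline range, and the list median was -0.50. Over all genes 2.86% were DEGs, and a change in either cell type was not tested. Adipoq was no DEG without CC-Ex 5 (edgeR adjusted p = 0.0606), and its call held 9 times out of 24 with each rat left out in turn.

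**Figure D3:**
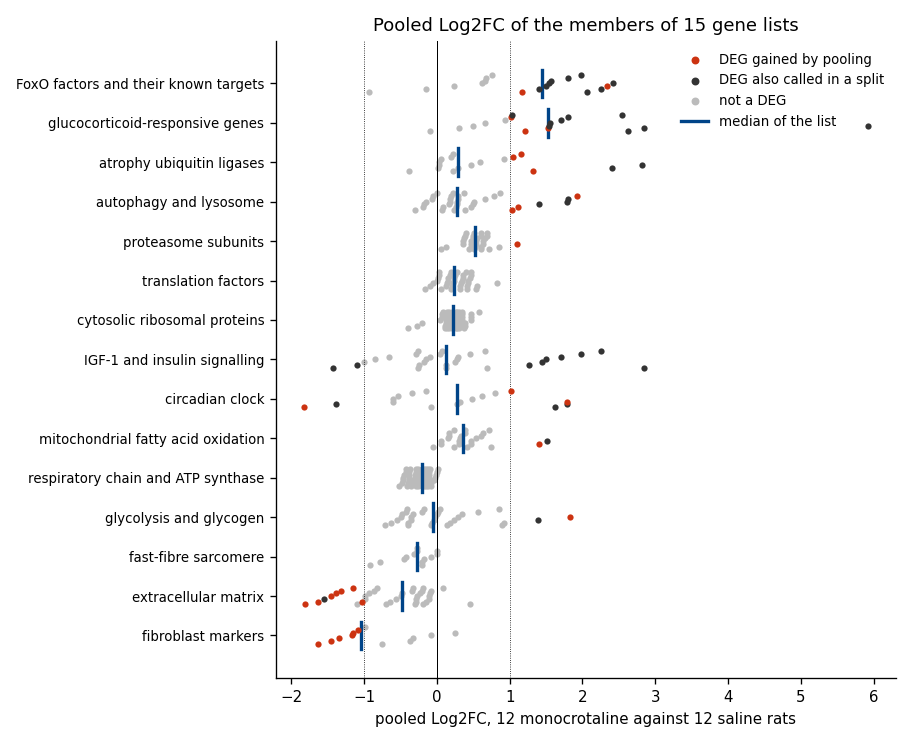
Pooled Log2FC of each measured member of 15 gene lists, 12 monocrotaline against 12 saline rats, with gained DEGs in red, DEGs also called in a split in black, other genes in grey and the list median as a blue bar. FoxO and glucocorticoid-responsive genes have medians of 1.45 and 1.52, proteasome, translation and ribosomal genes lie in narrow bands above 0, and the called matrix and fibroblast genes are mostly red.

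As the plot of list members shows, the calls among fibroblast markers and 7 of 8 among matrix genes came by pooling. Of the FoxO DEGs 9 of 11, and of the glucocorticoid-responsive DEGs 9 of 12, were called in a split comparison too. Over all DEGs, 103 of 223 upregulated and 51 of 87 downregulated genes were gained, and the matrix and fibroblast calls were all downregulated. The lists also share called members, among them Col1a1 and Col3a1 (matrix and fibroblast) and Klf15 (FoxO and glucocorticoid-responsive). Whether the gained share differs between lists was not tested. Individual rats differed in how much of the pooled pattern they showed. Of the 223 upregulated DEGs, a monocrotaline rat had between 15 and 211 above every saline rat (median 167), and of the 87 downregulated DEGs between 24 and 83 below every saline rat (median 55). CC-Ex 4 had 15 and 24, CC-Ex 1 had 71 and 31, and CC-Sed 4 had 78 and 33, the 3 lowest for the upregulated genes. CC-Sed 6 had 211 and 67, CC-Sed 1 had 204 and 69, and CC-Ex 5 had 200 and 83. Of the 103 gained upregulated genes, CC-Ex 4 had 4 above every saline rat and CC-Sed 6 had 94. These counts describe the same rats that chose the genes and carry no test.

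**Figure D4:**
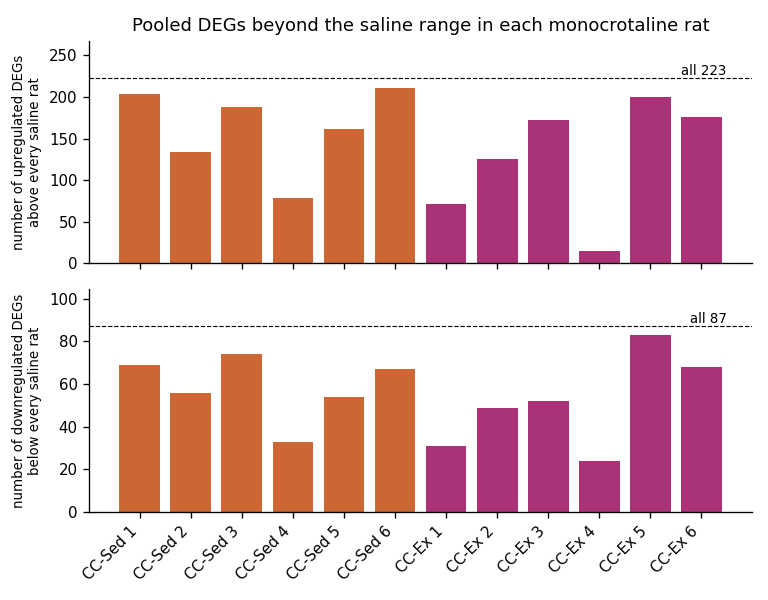
Number of the 223 upregulated DEGs above every saline rat (top) and of the 87 downregulated DEGs below every saline rat (bottom) in each of the 12 monocrotaline rats, orange for CC-Sed and purple for CC-Ex; dashed lines mark all DEGs. CC-Ex 4 has 15 and 24, and CC-Ex 5 has 200 and 83.

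Pooling also removed calls. In all, 64 genes called in a split comparison (39 up and 25 down) were not pooled DEGs, 57 from the sedentary and 7 from the exercised comparison. Of these, 59 kept an adjusted p-value under 0.05 and fell under the fold criterion, and 5 lost the adjusted p-value. Their pooled Log2FC lay between 0.49 and 0.995 in size. The smallest sedentary p-values among them were those of Vwa8 (1.13 in sedentary, 0.47 in exercised and 0.80 in all rats), Pik3c2a, a PI3 kinase of class II (1.13, 0.56 and 0.85), Hopx, a homeodomain cofactor (-1.21, -0.75 and -0.98), Tinagl1, a matrix protein (1.23, 0.70 and 0.97), and Osmr, the oncostatin M receptor (1.07, 0.49 and 0.78). The interaction, the exercised minus the sedentary effect, passed no adjusted test in edgeR for any of the 10851 genes (smallest adjusted p = 0.9996, 154 genes at an unadjusted p-value under 0.05), and DESeq2 gave 0 as well, with 197 unadjusted. The smallest interaction p-values were those of Phlpp2, a phosphatase of Akt (0.41 in sedentary and -0.54 in exercised rats), Micall2 (0.71 and -0.22), Dnajb14 (0.35 and -0.57), Nav3 (1.17 and -0.50) and Creb5 (0.40 and -0.73). None of these 5 was a pooled DEG, and their effects had opposite signs. Both follow in part from choosing genes by the interaction p-value, and they are no evidence for an interaction.

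The spread between rats was larger with monocrotaline. Each rat's distance from the mean profile of its group was taken as the root mean square difference of log2 CPM over all genes, scaled up for the number of rats behind that mean. It was 0.333 ± 0.045 (SD, n = 12) in saline and 0.491 ± 0.159 (SD, n = 12) in monocrotaline rats, a difference of 0.158 (two-sided permutation test within training, p = 1.1e-04). The distances in a group share its mean, so they are not independent, and the permutation tests of distance do not allow for this. Saline rats lay between 0.248 and 0.380 (median 0.339) and monocrotaline rats between 0.340 and 0.950 (median 0.456), and 9 of 12 monocrotaline rats were above every saline rat. Sed had a mean of 0.334, Ex of 0.332, CC-Sed of 0.460 and CC-Ex of 0.522. Within sedentary rats the difference was 0.126 (exact permutation test, p = 0.00433, n = 6 against 6), and within exercised rats 0.190 (exact permutation test, p = 0.0195). With CC-Ex 4 and CC-Ex 5 both left out it was 0.0831 (permutation p = 0.00221). The median biological coefficient of variation was 0.165 for Sed and 0.162 for Ex, against 0.251 for CC-Sed and 0.298 for CC-Ex.

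**Figure D5:**
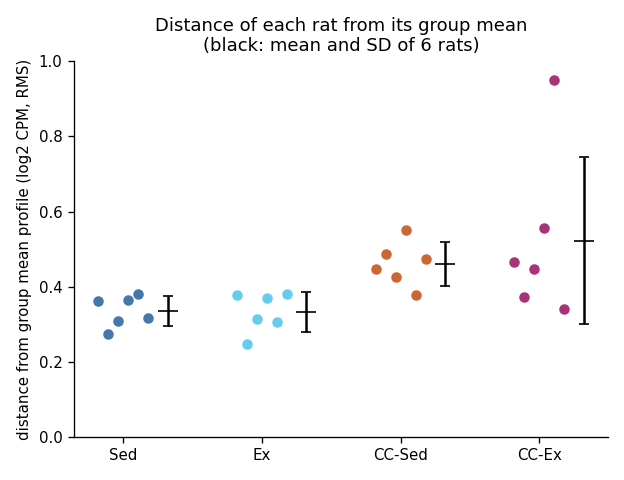
Distance of each rat from the mean profile of its own group, as the root mean square difference of log2 CPM over 10851 genes, scaled up for the group size, with the mean and SD of 6 rats in black. Sed and Ex rats lie between 0.248 and 0.380, 9 of 12 monocrotaline rats lie above them, and CC-Ex 5 lies at 0.950.

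Gene by gene, 9549 of 10851 genes (88.0%) had a larger standard deviation within the monocrotaline than within the saline groups. The median standard deviation of log2 CPM was 0.20 in saline and 0.36 in monocrotaline rats, with a median ratio of 1.62. The ratio was over 2 in 3607 genes and under its inverse in 18. A test of absolute deviations from the group mean with limma found 197 genes (1.82%) with a wider spread at an adjusted p-value under 0.05 and 0 with a narrower one (3400 and 37 unadjusted). The number depended on the form of the test, since deviations from the group median gave 0 wider genes (1861 unadjusted), and leaving out 1 rat at a time gave between 18 and 1515. Genes named for their spread are therefore given as a description.

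Several of the 197 were glycolytic and fast-fibre genes. Of 32 genes of glycolysis and glycogen, 7 were in the 197 (Pgam2, Gpi, Pgk1, Tpi1, Pkm, Eno3 and Pgam1), and of 13 fast-fibre genes 4 (Casq1, Myl1, Tnni2 and Tnnc2). Pgk1, phosphoglycerate kinase, lay between 927 and 1377 CPM in saline and between 383 and 1556 CPM in monocrotaline rats, with standard deviations of log2 CPM of 0.21 and 0.67. Its pooled Log2FC was -0.48 (edgeR adjusted p = 0.0590). Gpd1, glycerol-3-phosphate dehydrogenase, lay between 713 and 1335 CPM in saline and between 92.6 and 1546 CPM in monocrotaline rats. Myl1, the fast light chain, had standard deviations of 0.23 and 0.54. Foxo1 was in the list too, with 0.27 and 1.30, and Eif4ebp1 with 0.23 and 1.14. By contrast, the median log2 ratio of standard deviations was 0.09 over fibroblast, 0.05 over macrophage and 0.14 over clock genes, against 0.70 over all genes. Those lists varied widely in saline rats already, with median standard deviations of 0.82, 0.95 and 0.45. The gained genes, chosen for missing the split criteria, had a median log2 ratio of 1.21, which carries no test.

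The smallest p-values for a wider spread were those of Klhl26, Slc16a3 (the lactate exporter MCT4), Tpi1, Slc7a8, an amino acid transporter, and Ltbp3, a binding protein of latent TGF-beta. Slc16a3 lay between 171 and 309 CPM in saline and between 43.2 and 369 CPM in monocrotaline rats. Slc7a8 lay between 11.7 and 22.0 CPM in saline and between 14.8 and 294 CPM in monocrotaline rats, and its mean rose too (Log2FC 2.33 ± 0.45, edgeR adjusted p = 0.00123, and 1.75 without CC-Ex 5). In the other direction, Echdc3 had standard deviations of 0.31 in saline and 0.13 in monocrotaline rats, and Renbp, Tob2, LOC498154 and Ripor2 followed. None of these 5 passed the adjusted p-value for a narrower spread.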

How the data were processed

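RNA of 24 rats was quantified, 1 library a rat. According to the study's methods and the submitters' processing notes, the authors trimmed the reads with Trim Galore, quantified them with Salmon on rat build mRatBN7.2 and summed transcript estimates to genes. The deposited values are estimated counts, not scaled for library size, as whole numbers of at least 10 in every rat, so low genes were already removed by the authors. Tests used edgeR 4.0.16 under R 4.3.3 (TMM scaling, filterByExpr, which removed 0 genes, and quasi-likelihood F tests with Benjamini-Hochberg adjustment over 10851 genes). The pooled model held training and treatment, and the split and interaction contrasts came from a model of 4 groups. Standard errors are the Log2FC divided by the square root of F. CPM was scaled by TMM library size, and log2 CPM used a prior count of 2. Spread was tested per rat with 100000 permutations of treatment within training, and per gene with limma 3.58.1. Code was tested on simulated data. Differences between rats, more than depth, set the precision.

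The comparison, gene lists and rules for named genes were chosen with earlier results of these data known. Named genes were the DEGs with the smallest p-values and largest changes, those gained or lost by pooling with the smallest p-values, the smallest interaction and spread p-values, and members of the lists. Genes at the edge of the threshold and Gpd1 were added after their values were seen. A few genes that these rules named are not reported here. Promoters were matched by symbol. The same replicate numbers in different groups belong to different rats. Deviations of same-numbered saline and monocrotaline rats had a mean correlation of -0.0386 over 12 pairs, with 5 above 0.1, so the numbers were not taken to pair rats. Alternatives were other scalings, filters, covariates and criteria, DESeq2 1.42.0, limma-voom, a replicate block, other measures of spread, and each rat left out in turn.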

Additional observations from a re-analysis of the deposited data

Results flagged for a closer look

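Some values lay far from the other 5 rats of their group, by a gap to the nearest rat of more than 0.625 of the whole range (Dixon's criterion for 6 values, on log2 CPM for genes). Chance flags about 1 in 20 groups. Of 636 groups checked, over the genes named here, the distances and the total counts, 43 values were flagged (6.76%), 14 of them in CC-Ex 5.

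CC-Ex 5 lay 0.950 log2 units from its group mean profile. It had high levels of Map1lc3b at 898 CPM, Map1lc3b2 at 211 CPM, Sqstm1 at 2408 CPM, Psmd11 at 504 CPM, Psmd8 at 393 CPM, Ube4b at 387 CPM, Eif3a at 799 CPM, Acsl4 at 259 CPM and Srxn1 at 8.84 CPM. It had low levels of Ccnd1 at 0.281 CPM, Dusp10 at 2.65 CPM, Armcx2 at 0.375 CPM and Igfbp5 at 12.2 CPM.

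CC-Ex 4 had a high Slc25a30 at 22.8 CPM and a low Micall2 at 0.840 CPM. Other monocrotaline rats had 1 or 2 values apart: Adipoq at 22.6 CPM in CC-Ex 2, Renbp at 3.52 CPM in CC-Ex 3, Irgm at 2.99 CPM in CC-Sed 1, Col1a1 at 59.9 CPM in CC-Sed 2, Slc43a1 at 70.5 CPM in CC-Sed 3, Acer2 at 6.95 CPM and Adipoq at 8.34 CPM in CC-Sed 4, and LOC108348067 at 8.13 CPM in CC-Sed 5.

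Among saline rats, Sed 5 had 6 such values, high Psmd2 at 421 CPM, Psmd11 at 179 CPM and Ube4b at 61.4 CPM and low Hbb at 21.6 CPM, Hba-a1 at 19.7 CPM and Dnajb14 at 0.922 CPM. Sed 1 had Acer2 at 5.16 CPM and Casq1 at 2360 CPM, and Sed 3 had Socs2 at 24.8 CPM and Hopx at 19.6 CPM. Ex 1 had Prodh at 8.46 CPM and Psmd8 at 74.1 CPM, Ex 2 had Il6r at 3.72 CPM, and Ex 3 had Osmr at 3.30 CPM. Ex 4 had Cited2 at 126.6 CPM and Gpd1 at 713 CPM, and Ex 6 had Mamstr at 24.4 CPM, Irgm at 10.35 CPM and Ulk1 at 41.5 CPM.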

How the results depend on the processing

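The pooled counts (223 up, 87 down) kept within 1.5 times under DESeq2 size factors, no filter, a minimum of 5 CPM, hemoglobin left out, the 4-group mean effect, no training covariate, the library number, the slow-fibre covariate and the DESeq2 test. With the adjusted p-value alone they were 1957 and 1197, with 336 list members called in place of 87, 2442 genes gained and 18 lost. A test against a Log2FC of 1 (glmTreat) left 12 up and 0 down (121 and 22 unadjusted), 9 of them list members. Limma-voom gave 148 and 148, with variances by treatment 144 down, and with rat weights 138 up. DESeq2 gave 49 gained and 124 lost. The replicate block gave 140 up and 134 down, 139 and 81 of them shared with the main calls, and no gene of wider spread (3207 unadjusted). The same numbers join different rats, and within each group they rise with the library number. The block therefore also follows the order of libraries, and its part was not tested. The gained and lost counts with the block were 128 and 74. The cause of these differences was not tested.

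Leaving out 1 rat at a time gave 149 to 260 up, 70 to 123 down, 69 to 96 list members, 33 to 208 gained, 22 to 153 lost and 18 to 1515 genes of wider and 0 to 7 of narrower spread. Of 123 DEGs followed gene by gene, 84 were called in all 24 of these fits. The lost count was 153 without CC-Ex 5, 151 without CC-Sed 4, 141 without CC-Sed 2, and 22 without CC-Sed 1 or CC-Sed 6. The count of wider genes moved by over 1.5 times whichever rat was left out, and deviations from the median left 0. The difference in distance lay between 0.101 and 0.176, with permutation p at most 0.00043, and kept its direction under every alternative run. The interaction gave 0 genes in each fit. The difference in total counts, near 0, lay between -678681 and 517681. In an alternative chosen after seeing the data, CC-Ex 4 and 5 both left out, 33 were gained, 15 of them among the 154, 132 were lost and 1 gene had a narrower spread.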
